A study of Mus musculus with 9 samples.

Results

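The genes described here are 5 genes of oligodendrocytes and myelin, Opalin, Aspa, Fa2h, Nkx6-2 and Klk6, out of 9802 genes in the deposited table. They were chosen from measured values of these same arrays, as oligodendrocyte genes that earlier work on the table had found lower after social defeat. Their differences between groups are therefore given as a description, with no test of their own. Each of the 5 has a single probe set in the table.

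RNA that came down with Argonaute 2 (Ago2), the protein that holds microRNAs and the transcripts they pair with, was measured in the amygdala of male C57BL/6J mice on an Affymetrix whole-transcript array. Chronic social defeat, a stress protocol of repeated exposure to an aggressor, was given at 10 weeks of age, and tissue was taken 8 days after it ended. There were 9 arrays in 3 groups of 3, from control mice without defeat (numbered 1, 2 and 4) and from defeated mice called susceptible or resilient (the criterion is not given in the material used here). The labels name no genetic change in any group and do not say whether an array stands for its own animal, so p-values cover the spread between arrays, part or all of which may be technical.

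Oligodendrocytes wrap axons of the central nervous system in myelin, a stack of membrane rich in lipid and in a small set of proteins. They arise from precursor cells that persist in the adult brain, and grey matter such as the amygdala holds both kinds of cell. In a bulk sample, fewer oligodendrocytes and less RNA per oligodendrocyte cannot be told apart. Here a lower signal can also mean less of a transcript bound to Ago2, and with no control precipitation and no total RNA analysed here these cannot be told apart either.

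Opalin encodes a membrane glycoprotein of mature oligodendrocytes, and Aspa encodes aspartoacylase, which splits N-acetylaspartate and frees acetate for lipid synthesis. The promoters of both are shown because these genes had the closest pattern across arrays of any pair among the 5. Each runs from 250 bases before to 50 bases after a RefSeq start site of assembly GRCm38.p6, on the minus strand, at chr19:41077064-41077363 for Opalin and chr11:73324588-73324887 for Aspa. The Aspa gene reaches to 73326876 on that strand, so its window lies inside the gene, at a start site other than the outermost. Capitals mark every match, on either strand, to ACAAAG and AACAAT, forms of the SOX motif, and to CAGCTG and CATCTG, forms of the E-box bound by basic helix-loop-helix factors.
Opalin: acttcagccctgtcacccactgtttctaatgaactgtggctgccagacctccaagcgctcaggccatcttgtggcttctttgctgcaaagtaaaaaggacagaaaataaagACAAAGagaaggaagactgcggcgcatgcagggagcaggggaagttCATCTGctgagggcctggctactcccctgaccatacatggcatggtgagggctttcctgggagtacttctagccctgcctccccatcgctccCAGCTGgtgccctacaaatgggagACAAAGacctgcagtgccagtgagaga
Aspa: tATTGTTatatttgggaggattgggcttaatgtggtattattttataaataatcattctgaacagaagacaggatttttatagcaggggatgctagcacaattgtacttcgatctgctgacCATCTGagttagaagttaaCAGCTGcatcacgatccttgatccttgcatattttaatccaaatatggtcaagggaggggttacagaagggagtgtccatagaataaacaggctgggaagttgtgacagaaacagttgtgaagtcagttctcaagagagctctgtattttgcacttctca
The Opalin window held ACAAAG at 2 places, and CAGCTG and CATCTG at 1 place each. The Aspa window held AACAAT, on the opposite strand, CAGCTG and CATCTG at 1 place each. These letters are common: ACAAAG was in 18.7% of all 32851 RefSeq windows of this length, AACAAT in 10.7%, CAGCTG in 16.3% and CATCTG in 17.2%. A match is a description of the sequence and not a binding site. RefSeq windows were matched for 4 of the 5 genes. The window of Nkx6-2 had no match to these letters. Those of Klk6 held ACAAAG at 1 place, AACAAT at 1 place and CATCTG at 1 place.

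Values are log2 signals of the robust multi-array average (RMA), so a difference of 1 is a doubling, and levels are compared only within a gene because probe sets of different genes differ in brightness. Array medians lay between 7.11 and 7.19. The table is not a full list of genes: its entries run in the order of their p-value for a difference among the 3 groups. Taking the lowest p of each gene, the highest over all genes was 0.287 by one-way analysis of variance. This selection by outcome raises the share of genes called in any comparison. The kept entry of Anln, a gene with several entries, had a p of 0.474 in that test. Of 88 genes on lists of mature oligodendrocyte genes the table held 23. The myelin protein genes Mbp, Mog, Mag, Mobp and Cnp, and the lineage factors Sox10, Olig1, Olig2 and Myrf, had no entry in it. Their differences are therefore not known here. Genes whose lowest p was past 0.287 are missing from the table, and whether these were among them was not tested. The label of oligodendrocyte genes therefore comes from the choice of the genes and was not tested in these data. The other 18 genes of those lists were divided, with 11 lower and 7 higher in susceptible arrays against control, beside 42.1% of all genes lower. Control means of the members all lay above 6.12, the level under which 95% of 588 olfactory and vomeronasal receptor genes fell. That bears on brightness and not on cell type. Resilient array 1 stood apart from the other defeated arrays, so values without it are given beside the results on the members.

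**Figure D1:**
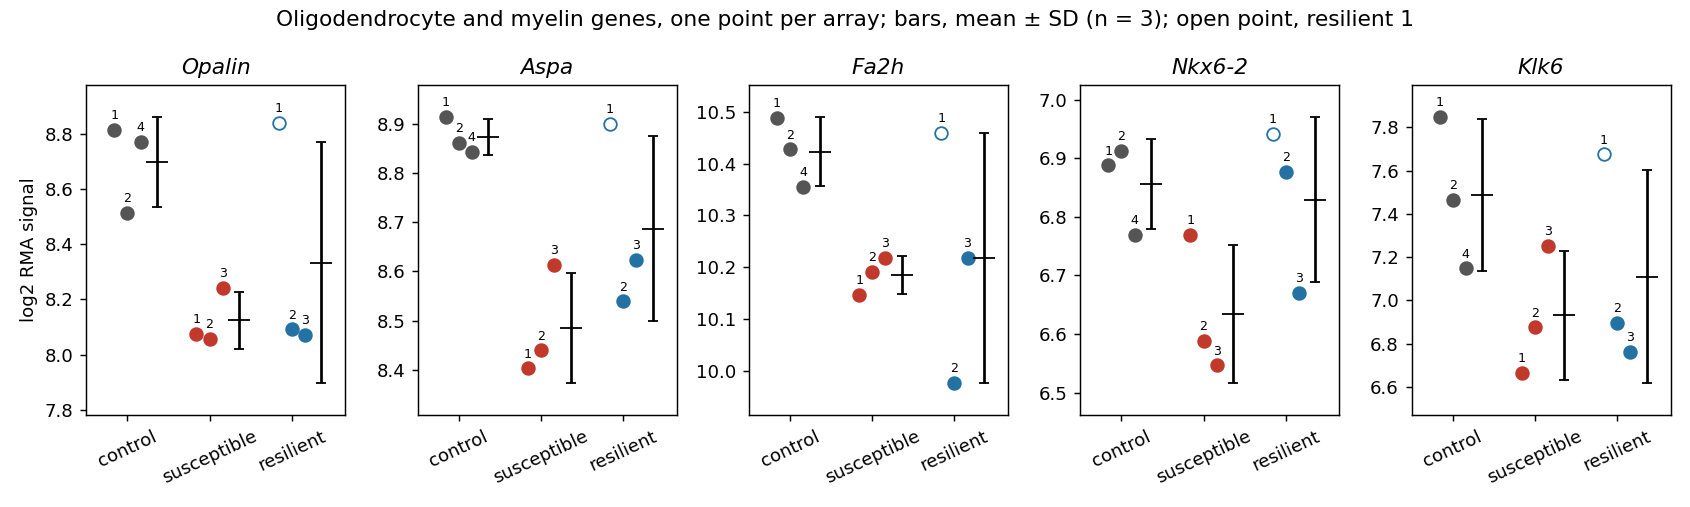
RMA signal on the log2 scale (vertical axis) of Opalin, Aspa, Fa2h, Nkx6-2 and Klk6 in the 9 arrays, by group (horizontal axis), with points for arrays and bars for the group mean and SD. Resilient array 1 sits among the control arrays or above them in every panel, and the other defeated arrays are mostly below the lowest control array.

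Opalin, the oligodendrocyte membrane glycoprotein (chr19:41061959-41077113), was lower in 5 of the 6 defeated arrays. Its signal was 8.81, 8.51 and 8.77 in control arrays 1, 2 and 4, 8.07, 8.06 and 8.24 in susceptible arrays 1 to 3, and 8.84, 8.09 and 8.07 in resilient arrays 1 to 3. All susceptible arrays and resilient arrays 2 and 3 lay below every control array, and resilient array 1 was the highest of all 9. The group means were 8.70 ± 0.16 in controls, 8.12 ± 0.10 in susceptible and 8.33 ± 0.44 in resilient arrays (SD, n = 3). The susceptible mean differed from the control mean by -0.57 (SE 0.18) in log2, so that the control signal was 1.49 times the susceptible signal. The resilient difference from control was -0.36 (SE 0.18).

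Aspa, the gene of aspartoacylase (chr11:73304987-73326876), was lower in the same 5 defeated arrays, by less. Its signal was 8.91, 8.86 and 8.84 in the controls, 8.40, 8.44 and 8.61 in the susceptible arrays, and 8.90, 8.54 and 8.62 in the resilient arrays. Controls lay within a narrow band, with a mean of 8.87 ± 0.04 (SD, n = 3), and again only resilient array 1 among the defeated arrays reached it. The susceptible mean was 8.48 ± 0.11 and the resilient mean 8.69 ± 0.19 (SD, n = 3). Against control the log2 difference was -0.39 (SE 0.09) in susceptible arrays, a control signal 1.31 times the susceptible signal, and -0.19 (SE 0.09) in resilient arrays.

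Fa2h encodes fatty acid 2-hydroxylase, which makes the hydroxylated fatty acids of myelin galactolipids (chr8:111345138-111393821). Its signal was 10.49, 10.43 and 10.35 in the controls, 10.15, 10.19 and 10.22 in the susceptible arrays, and 10.46, 9.98 and 10.22 in the resilient arrays. All susceptible arrays were below every control array, the lowest of all was resilient array 2, and resilient array 1 was between the controls. Group means were 10.42 ± 0.07, 10.19 ± 0.04 and 10.22 ± 0.24 (SD, n = 3) in control, susceptible and resilient arrays. The log2 differences from control were -0.24 (SE 0.10) for susceptible and -0.21 (SE 0.10) for resilient arrays, so that for this gene both defeated groups were at nearly equal distance from control.

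Nkx6-2 encodes a homeobox transcription factor of oligodendrocytes (chr7:139579376-139582797), and its pattern was the least like the others. The signal was 6.89, 6.91 and 6.77 in the controls, 6.77, 6.59 and 6.55 in the susceptible arrays, and 6.94, 6.88 and 6.67 in the resilient arrays. Susceptible array 1 was level with control array 4, and resilient arrays 1 and 2 were within or above the control range, so the groups overlapped. Means were 6.86 ± 0.08 in control, 6.63 ± 0.12 in susceptible and 6.83 ± 0.14 in resilient arrays (SD, n = 3). The log2 difference from control was -0.22 (SE 0.08) in susceptible arrays and -0.03 (SE 0.08) in resilient arrays. The latter is smaller than its SE, and it turned to 0.05 when resilient array 3 was left out.

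Klk6 encodes kallikrein-related peptidase 6, a secreted serine protease made by oligodendrocytes (chr7:43824438-43832027). Its signal was 7.85, 7.46 and 7.15 in the controls, 6.66, 6.88 and 7.25 in the susceptible arrays, and 7.67, 6.90 and 6.76 in the resilient arrays. The controls spread widely, susceptible array 3 was above the lowest of them, and resilient array 1 was above that array as well. Means were 7.49 ± 0.35, 6.93 ± 0.30 and 7.11 ± 0.49 (SD, n = 3) in control, susceptible and resilient arrays. The susceptible difference from control was -0.56 (SE 0.26), as large as that of Opalin but with a larger error, and the resilient difference was -0.38 (SE 0.26).

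Taking the 6 defeated arrays together, the log2 difference from control was -0.47 (SE 0.16) for Opalin, -0.47 (SE 0.22) for Klk6, -0.29 (SE 0.08) for Aspa, -0.22 (SE 0.09) for Fa2h and -0.12 (SE 0.07) for Nkx6-2. The median of the 5 was -0.29, beside a median of 0.04 over all genes. None of the 5 had all defeated arrays below all controls, which 6.45% of all genes had. Resilient array 1 was above the lowest control for each, and so were resilient array 2 for Nkx6-2 and susceptible array 3 for Klk6. In limma with Benjamini-Hochberg adjustment over all genes, 0 of the 5 passed an adjusted p of 0.05, against 1.29% of all genes, and 3 were under an unadjusted p of 0.05, against 36.9% of all genes. Because the same differences chose the genes, nothing is read from these counts.

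For susceptible arrays against control, 3 of the 5 (Opalin, Aspa and Fa2h) had every susceptible array below every control, as had 14.8% of all genes. The same limma test called 0 of the 5 at an adjusted p of 0.05 and 2.4% of all genes, and 4 of the 5 and 40.7% of all genes at an unadjusted p of 0.05. The median difference was -0.39, beside 0.05 over all genes. For resilient arrays against control the median was -0.21, beside 0.03 over all genes. Limma's adjusted p called 0 of the 5 and 0% of all genes there, the unadjusted p called 0 of the 5 and 21.2% of all genes, and 0 of the 5 had all resilient arrays below all controls, as had 11.4% of all genes. These comparisons share the control arrays, so they are set side by side and not counted as independent.

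The direct comparison of susceptible with resilient arrays asks whether mice that responded differently to defeat differed in these genes. The log2 difference was -0.21 (SE 0.18) for Opalin, -0.20 (SE 0.09) for Aspa, -0.20 (SE 0.08) for Nkx6-2, -0.18 (SE 0.26) for Klk6 and -0.03 (SE 0.10) for Fa2h, with a median of -0.20 beside 0.01 over all genes. Limma's adjusted p called 0 of the 5 and 0% of all genes, the unadjusted p called 2 of the 5 and 11.8% of all genes, and 0 of the 5 had every susceptible array below every resilient array, as had 6.65% of all genes. The direction of the difference rested on resilient array 1 for Opalin, Fa2h and Klk6, and not for Aspa and Nkx6-2. Without it the difference was 0.04 for Opalin, 0.09 for Fa2h and 0.10 for Klk6, with susceptible arrays now the higher, and -0.10 for Aspa and -0.14 for Nkx6-2.

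Resilient array 1 was above the control mean for all 5 genes, by 0.14 for Opalin, 0.03 for Aspa, 0.04 for Fa2h, 0.09 for Nkx6-2 and 0.19 for Klk6, and it was the highest of the 6 defeated arrays for each. Resilient arrays 2 and 3, averaged, were off the control mean by -0.62, -0.29, -0.33, -0.08 and -0.66 in the same order of genes. Apart from Nkx6-2, those 2 arrays were thus as low as the susceptible arrays or nearly so. When array 1 was left out, a choice singled out after its values were seen, the difference of the 5 remaining defeated arrays from control was -0.60 (SE 0.07) for Opalin, -0.34 (SE 0.05) for Aspa and -0.28 (SE 0.06) for Fa2h. These 3 genes then passed limma's adjusted p, as did 4.39% of all genes. Klk6 (-0.61, SE 0.17) and Nkx6-2 (-0.15, SE 0.07) did not. In susceptible arrays against control, the same omission altered only the shared estimate of spread, and Opalin and Aspa passed, as did 3.94% of all genes.

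Across the 9 arrays, Pearson's r between members was 0.41 to 0.93 over the 10 pairs, with a median of 0.85. Opalin and Aspa had the highest r, and the 4 pairs with Nkx6-2 had the lowest, from 0.41 to 0.60. After each group's mean was taken out, r was 0.11 to 0.88 with a median of 0.76, and without resilient array 1 it was 0.28 to 0.92 with a median of 0.81. With both steps, r within groups was -0.58 to 0.73 with a median of 0.23. Opalin and Fa2h then had an r of 0.09, and the 4 pairs with Nkx6-2 were below 0, so resilient array 1 carried much of the within-group correlation. All pairs share the same arrays and the choice of genes, so these are descriptions with no p.

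The genes of the table most like the average of the 5, by Pearson's r over the 9 arrays, were Gm4340 (0.94), the olfactory receptor gene Olfr558 (0.93) and Chat (0.92), which encodes choline acetyltransferase. The signals of Gm4340 and Olfr558 were below 6.12 on every array, in the range of receptor genes of the nose. For Opalin the 3 most alike were Aspa (0.93), Lrrc61 (0.92) and Creb5 (0.92). For Aspa they were Cd180 (0.95), a surface receptor of immune cells, Gm4340 (0.94) and Opalin (0.93). For Fa2h they were Cdc42ep2 (0.96), Zfp799 (0.93) and Cdc42ep1 (0.91), of which Cdc42ep2 and Cdc42ep1 encode effectors of the small GTPase Cdc42. For Nkx6-2 they were Gm10413 (0.96), the protocadherin gene Fat3 (0.96) and Gm7973 (0.95), and none of the other members. For Klk6 they were Olfr558 (0.91), Gm4340 (0.91) and Lpar1 (0.91), a lysophosphatidic acid receptor that was also on the oligodendrocyte lists. Without resilient array 1, r of these genes with their target was 0.88 to 0.97.

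The other 18 genes of the mature oligodendrocyte lists in the table were divided. In susceptible arrays against control 11 were lower and 7 higher, with a median log2 difference of -0.10. Over all genes 42.1% were lower there, with a median of 0.05. Of the 18 genes, 0 passed limma's adjusted p. Every susceptible array was below every control in 9 of them, as in 14.8% of all genes, and above every control in 5, as in 25.4% of all genes. The lower ones included Tmem125 (-0.27, SE 0.09), Septin4 (-0.24, SE 0.07), Mal (-0.24, SE 0.09), Lpar1 (-0.21, SE 0.09) and Omg (-0.17, SE 0.05), and further Evi2a, Anln, Sirt2, Pmp22 and Gal3st1, whose differences were between -0.17 and -0.08. Mal is a proteolipid of compact myelin and Omg a glycoprotein of oligodendrocytes and neurons. Mal was 10.48 ± 0.04 in control, 10.25 ± 0.05 in susceptible and 10.39 ± 0.23 in resilient arrays (SD, n = 3), with resilient array 1 at 10.63, above every control, as for Opalin.

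The higher ones were Tmem98 (0.30, SE 0.09), Jam3 (0.23, SE 0.06), Pcsk6 (0.20, SE 0.05), Enpp2 (0.19, SE 0.08), Phldb1 (0.12, SE 0.07), Sox8 (0.09, SE 0.05) and Gsn (0.07, SE 0.04). Enpp2 encodes autotaxin, which choroid plexus makes in quantity as well, and Sox8 is a transcription factor close to Sox10. In the 6 defeated arrays together 11 of the 18 were lower and 7 higher, with a median of -0.05, and in resilient arrays 8 were lower and 10 higher, with a median of 0.02. Over all genes 41.4% were lower in the defeated arrays and 41.6% in the resilient arrays. The resilient balance of the 18 turned to 11 lower with arrays shifted to a common median, 14 lower with quantile scaling and 10 lower without resilient array 1. Susceptible arrays against resilient arrays had 11 lower and 7 higher, and 8 lower and 10 higher without resilient array 1. With all arrays, 45.9% of all genes were lower in that comparison. Limma's adjusted p called 0 of the 18 in each of these comparisons as well. Resilient array 1 was above the control mean in 15 of the 18. Without it, Mal and Septin4 passed limma's adjusted p in defeated minus control, both lower, as did 4.39% of all genes in either direction. Without susceptible array 1, Jam3, Pcsk6 and Tmem98 passed in that comparison, all higher, as did 1332 of all 9802 genes in either direction.

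Genes on the list of oligodendrocyte precursors lay mostly on the other side of control from the members. Of 14 on the list the table held 6, and in susceptible arrays against control 5 were higher and 1 lower, with a median log2 difference of 0.18, beside 57.9% of all genes higher. The same 5 to 1 split had a median of 0.12 with arrays shifted to a common median and 0.10 with quantile scaling. Tns3, a focal adhesion protein gene, is used as a mark of newly forming oligodendrocytes, so the list is not of precursors alone. Tns3 rose by 0.29 (SE 0.06), from 9.09 ± 0.10 to 9.38 ± 0.08 (SD, n = 3), with an adjusted p of 0.047 in limma. That call held without resilient array 1 and without susceptible array 1, and was lost without any other single array, with quantile scaling, with the replicate block and with an allowance for the selection of the table. Cspg4 (0.27, SE 0.10), the NG2 proteoglycan, Vcan (0.22, SE 0.09), versican, Itpr2 (0.14, SE 0.07), an intracellular calcium channel, and Pdgfra (0.12, SE 0.06), the growth factor receptor of precursor cells, did not pass, nor did Matn4 (-0.06, SE 0.04), an extracellular matrix protein.

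In 4 of the 6 precursor genes every susceptible array was above every control, as in 25.4% of all genes. The direction was shared by the defeated arrays together (median 0.19, and 0.11 with quantile scaling) and by the resilient arrays (median 0.15, and 0.083 with quantile scaling), again with 5 higher and 1 lower, and 0 of 6 passed in either. Without resilient array 1 these medians were 0.19 and 0.16. Cspg4, Vcan and Pdgfra are also made by other cells of the brain, among them pericytes, astrocytes and fibroblasts.

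**Figure D2:**
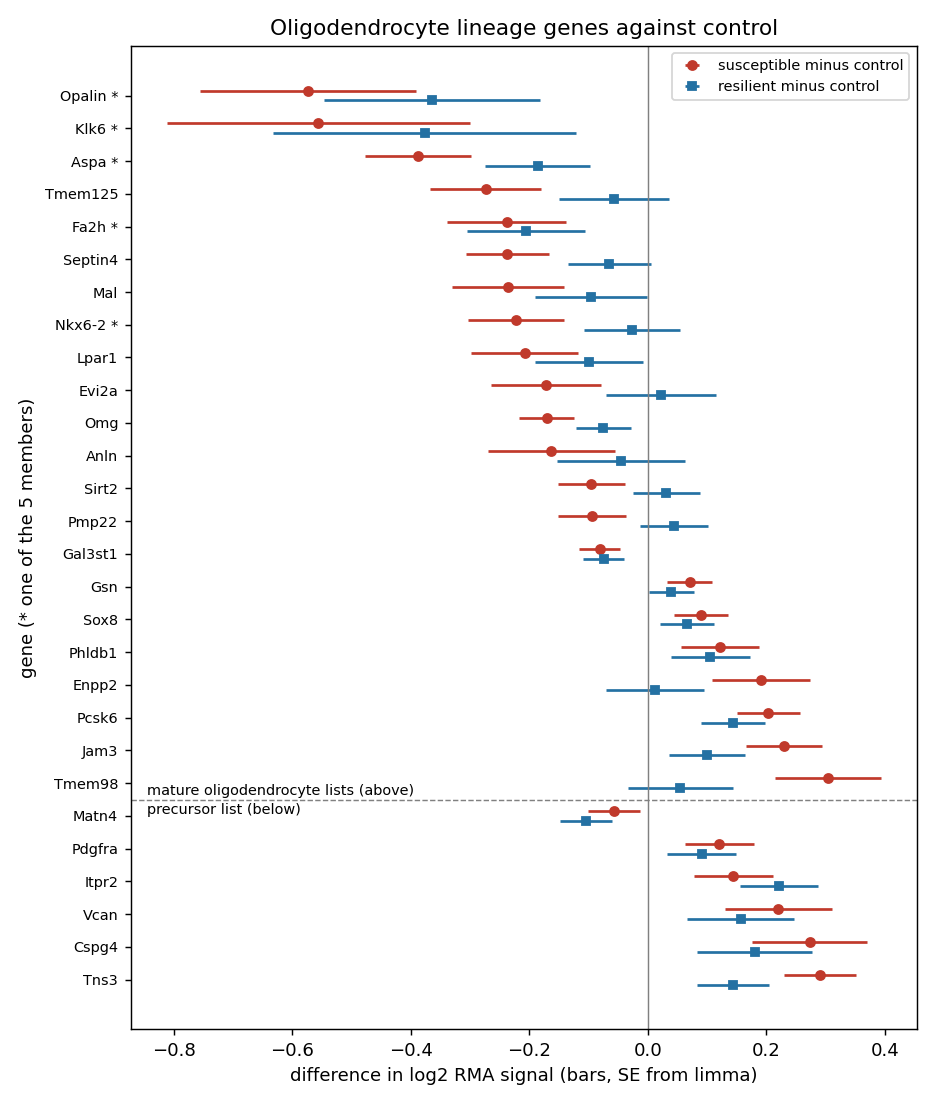
Log2 difference from control (horizontal axis, with SE from limma) of oligodendrocyte lineage genes in the table (vertical axis), for susceptible and resilient arrays; members carry a star. Opalin, Klk6 and Aspa have the lowest susceptible values, and 5 of the 6 precursor genes are above 0 in both groups.

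Averaged over the 5 members, and set against the control mean, the arrays stood at 0.12, -0.03 and -0.09 in controls, -0.46, -0.44 and -0.29 in susceptible and 0.09, -0.39 and -0.40 in resilient arrays. The same average over the 18 other mature genes was 0.04, -0.02 and -0.02 in controls, -0.09, -0.03 and 0.00 in susceptible and 0.08, -0.04 and -0.05 in resilient arrays, a much smaller span in which lower and higher genes offset each other. Over the 6 precursor genes it was 0.05, -0.09 and 0.03 in controls, 0.16, 0.21 and 0.13 in susceptible and 0.10, 0.13 and 0.11 in resilient arrays. For precursor genes resilient array 1 was thus with the other defeated arrays, the lowest of them by a small margin, whereas for the members it was with the controls.

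Genes that mark other cells differed between the same arrays. The 16 of 18 choroid plexus and ependyma genes in the table averaged -0.23 to 0.29 in control arrays, 0.33 to 0.76 in susceptible arrays and -0.18, 0.22 and 0.37 in resilient arrays 1 to 3. Resilient array 1 was below the control mean for 16 of 16. Among controls, array 4 had the highest choroid plexus average (0.29) and the lowest average over the 5 members (-0.09), and array 1 the lowest choroid plexus average and the highest over the members (0.12). Resilient arrays had such an inverse order too, with array 3 highest for choroid plexus and lowest for the members (-0.40). Susceptible arrays did not: array 3 had the highest average of both (0.76 and -0.29). The 8 of 18 microglia and macrophage genes averaged -0.04 to 0.08 in controls, -0.25 to -0.11 in susceptible arrays, and 0.00, -0.11 and -0.22 in the resilient arrays.

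The 5 of 14 genes of central amygdala and striatal-type neurons averaged -0.17 to 0.17 in controls, -0.76 to -0.14 in susceptible arrays and 0.78, -0.18 and -0.19 in resilient arrays, with array 1 above the control mean in 5 of 5. Such genes differ in level between neighbouring regions of the brain. Averages of 6 astrocyte genes (-0.01 to 0.08), 4 general neuronal genes (-0.09 to 0.02) and 8 genes of endothelium and pericytes (-0.15 to 0.12) spanned less than those of the 5 members over the 9 arrays. Small as they were, neuronal averages were lower in every defeated array (-0.092 to -0.030) than in any control (-0.017 to 0.024). Astrocyte averages were higher in every defeated array (0.015 to 0.076) than in any control (-0.007 to 0.006). Those of endothelium and pericytes overlapped. Among all these lists limma's adjusted p called only the astrocyte gene Fgfr3, a growth factor receptor, which rose by 0.23 (SE 0.05, adjusted p = 0.045) in susceptible arrays. That call was lost under the same settings as the call of Tns3. The part of these cells in the values of Opalin, Aspa, Fa2h, Nkx6-2 and Klk6 was not tested.

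**Figure D3:**
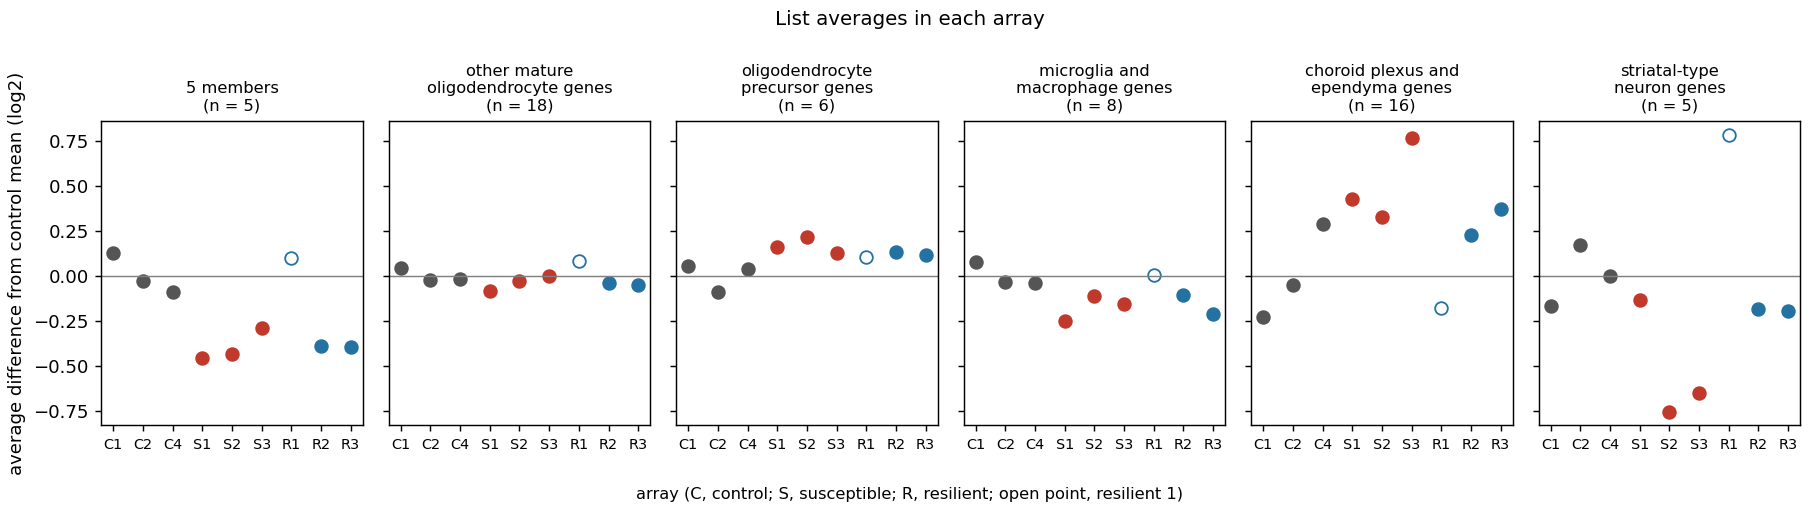
Average log2 signal against the control mean (vertical axis) over the genes of each list, for each of the 9 arrays (horizontal axis). The members and the choroid plexus genes lie on opposite sides of the control mean in all 6 defeated arrays. Resilient array 1 lies outside the range of the other defeated arrays in every panel, by a small margin for precursor genes.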

How the data were processed

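The deposited values are log2 signals that the authors made with RMA, and Partek is also named, per the submitters' processing notes; versions and array annotation were not given in the material used here. Gene symbols came from a deposited table of 11772 entries joined by probe set; 9 value columns of it matched no sample label and were not used. Symbols were updated through the NCBI RefSeq table of GRCm38.p6 (8393 current, 1014 updated, 388 without a match). Where a symbol had several entries (979), that with the highest mean was kept, which left 9802 genes. A mean per group was fitted on all 9 arrays with limma 3.58.1 (R 4.3.3, lmFit and eBayes, two-sided), with Benjamini-Hochberg adjustment over all genes at 0.05 and SEs from the fit; the code was tested on simulated data. The number of arrays limits the precision. Members and gene lists were chosen with earlier results of these data known. Named genes were the members, the other oligodendrocyte list genes in the table, the 3 genes most alike by Pearson's r, and genes of other lists that passed; for lists where none passed, averages are given in place of single genes. Some list genes enter the counts but are not reported here by name. Array numbers were not used as pairs in the main fit. Deviations of same-numbered arrays correlated at -0.08 to 0.25 and those of differently numbered arrays at -0.28 to 0.35. These ranges overlap, so they do not settle whether arrays were handled in sets. Alternatives covered scaling, a filter on dim genes, a trend in the prior, a replicate block, other handling of repeated entries, an allowance for the selection of the table, and each array left out. Correlations without resilient array 1 were added after seeing the data. Promoters came from RefSeq, and summaries from Python 3.11.15 with pandas 2.3.3.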

Additional observations from a re-analysis of the deposited data

Results flagged for a closer look

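A gap test over the 6 defeated arrays (Dixon's, critical value 0.625) was run on the 29 oligodendrocyte lineage genes, and chance marks about 1 in 20 such groups. It singled out Opalin, where resilient array 1 was the highest at 8.84 and the next was 8.24. It also singled out Vcan, where susceptible array 2 was the highest at 9.14 and the next was 8.94, at a ratio of gap to range just past the critical value. For the other 4 members resilient array 1 was the highest defeated array too, with a gap that did not pass.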

How the results depend on the processing

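For the 5 members, the differences from control in the defeated and susceptible arrays stayed below 0 under each alternative run. In resilient arrays Nkx6-2 turned to 0.0013 without control 2 and to 0.053 without resilient 3, in a range of -0.082 to 0.053 with single arrays left out. Susceptible minus resilient turned without resilient 1: median -0.28 to 0.043, Opalin -0.34 to 0.043, Fa2h -0.15 to 0.088 and Klk6 -0.36 to 0.10 over the arrays left out. Members called by limma in defeated minus control were 0, and 0 to 3 with single arrays left out (3 without resilient 1). In susceptible minus control they were 0, and 2 with arrays shifted to a common median (Opalin and Aspa), 1 without dim genes and 1 with a trend in the prior (Aspa in both), and 0 to 2 with single arrays left out (Opalin and Aspa without resilient 1, Aspa and Nkx6-2 without susceptible 1). Other oligodendrocyte list genes called in defeated minus control were 0, 1 without dim genes, and 0 to 4 with single arrays left out. In susceptible minus control that count was 1 (Tns3), 4 with the common median (Septin4, Omg, Gal3st1 and Tns3), 0 with quantile scaling, 0 with the replicate block, 0 with the allowance for the selection of the table, and 0 to 5 with single arrays left out. With the replicate block the members' medians were -0.32, -0.42, -0.25 and -0.20 in defeated, susceptible and resilient against control and in susceptible minus resilient. Over all genes, limma called 126 in defeated minus control, 21.4% of them lower, and 235 in susceptible minus control, 23.0% lower. With the common median these were 157, 76.4% lower, and 1496, 84.6% lower. Quantile scaling gave 3 and 12, the replicate block 0 and 0, the allowance 0 and 1, the filter on dim genes 306 and 382, the trend 255 and 407, and single arrays left out 0 to 1332 and 0 to 1928, the highest without susceptible 1. The causes of these shifts were not tested. With 3 arrays a group, a call that misses the threshold does not show that groups were alike.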

Other observations

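Klk6 lies on chromosome 7 with other kallikrein genes, and 6 others were in the table, a set picked after the values were seen. In the 6 defeated arrays against control the log2 difference was -0.47 (SE 0.22) for Klk6, -0.20 (SE 0.04) for Klk10, -0.19 (SE 0.08) for Klk1b9, -0.17 (SE 0.06) for Klk7, -0.06 for Klk4, -0.05 for Klk8 and 0.01 for Klk15. Klk10, at 5.37 ± 0.05 in controls (SD, n = 3) and 5.17 ± 0.04 in defeated arrays (SD, n = 6), passed limma's adjusted p (0.0433), but its signal was in the range of olfactory receptor genes. That call was lost with quantile scaling, the replicate block and the allowance for selection, and without any single array other than susceptible 1 or resilient 1. Without resilient array 1 the difference was -0.61 for Klk6, -0.21 for Klk10, -0.17 for Klk1b9, -0.18 for Klk7, -0.052 for Klk4, -0.025 for Klk8 and 0.015 for Klk15. Resilient array 1 was at 5.20 for Klk10, below every control, unlike its place for Klk6.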
